A study of Mus musculus with 19 samples.

Results

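Rag1, Rag2 and Dntt, 3 genes devoted to V(D)J recombination, were followed across 19 lymphomas of Eμ-Myc mice. They were taken by symbol from an expression table of 21086 genes, and all 3 were among the 19927 genes that passed the filter on low values. All mice carried the Eμ-Myc transgene, which places the oncogene Myc under the enhancer of the immunoglobulin heavy chain and so acts in B cells. The groups differed in Bptf, which encodes a subunit of the nucleosome remodelling factor NURF, and in the age at which the tumour appeared. They were 4 late-onset Bptf+/Δ lymphomas with 1 deleted Bptf allele (HET_late, 30 to 66 weeks), 5 late-onset wild-type lymphomas (WT_late, 28 to 76 weeks), 4 early-onset Bptf+/Δ lymphomas (HET_early, 8 to 13 weeks) and 6 early-onset wild-type lymphomas (WT_early, 9 to 17 weeks). Each library came from the polyadenylated RNA of 1 flash-frozen tumour, and the number after a group name only names a library. The sources used here do not give sex, strain background, or the exons that the deleted allele lacks.

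Developing lymphocytes assemble immunoglobulin and T cell receptor genes from V, D and J segments. RAG1, which holds the catalytic site, and RAG2, its cofactor that reads histone H3 methylated at a lysine of its tail, cut the DNA together beside the segments, and the broken ends are rejoined by the general end-joining machinery. DNTT (terminal deoxynucleotidyl transferase) adds bases without a template at the joints. Both Rag genes are known to be active in progenitor and precursor B cells and in thymocytes and to be shut off in mature B cells, while Dntt in the mouse marks the earlier, progenitor stage.

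Rag1 (ENSMUSG00000061311.6) lies on the minus strand of chromosome 2, at chr2:101638282-101649501 in GRCm38, and Rag2 (ENSMUSG00000032864.4) on the plus strand at chr2:101624718-101632529, so that the neighbours are transcribed towards each other. Dntt lies on chromosome 19, at chr19:41029275-41059525 on the plus strand. The 250 bases before each RefSeq start (GRCm38.p6) are shown because the 2 Rag genes varied together across tumours from separate start sites. Capitals mark matches, on either strand, to the E box CANNTG, the CCAAT box, the Ikaros core TGGGAA, the RUNX core TGTGGT, the FOXO core TGTTTAC or the MYB core AACNG. The windows are chr2:101649533-101649782 on the minus strand for Rag1, chr2:101624462-101624711 on the plus strand for Rag2 and chr19:41029025-41029274 on the plus strand for Dntt, each written 5′ to 3′.
Rag1: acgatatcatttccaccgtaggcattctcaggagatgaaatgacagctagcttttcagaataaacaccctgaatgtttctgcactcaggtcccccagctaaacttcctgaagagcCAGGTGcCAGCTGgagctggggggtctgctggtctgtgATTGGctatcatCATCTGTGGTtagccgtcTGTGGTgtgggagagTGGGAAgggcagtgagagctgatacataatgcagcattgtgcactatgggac
Rag2: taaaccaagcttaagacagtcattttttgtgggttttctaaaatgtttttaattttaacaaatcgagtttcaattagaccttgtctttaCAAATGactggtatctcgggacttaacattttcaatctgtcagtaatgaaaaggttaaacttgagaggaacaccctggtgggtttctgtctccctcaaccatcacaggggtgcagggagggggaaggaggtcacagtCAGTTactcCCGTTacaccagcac
Dntt: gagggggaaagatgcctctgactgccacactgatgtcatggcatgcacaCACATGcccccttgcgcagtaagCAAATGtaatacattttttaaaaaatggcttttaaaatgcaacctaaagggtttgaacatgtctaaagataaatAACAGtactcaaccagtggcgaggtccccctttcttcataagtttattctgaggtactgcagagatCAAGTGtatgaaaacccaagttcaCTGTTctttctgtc
The Rag1 window held 3 E boxes, of which 1 overlaps a RUNX core, with 2 RUNX cores, 1 Ikaros core and 1 CCAAT box in all. The Rag2 window held 1 E box and 2 MYB cores, and the Dntt window 3 E boxes and 2 MYB cores. None held the FOXO core. Among 32851 mouse promoter windows of this length, 66.2% held an E box, 74.2% the MYB core, 33.8% the CCAAT box, 21.6% the Ikaros core, 14.05% the RUNX core and 3.17% the FOXO core. These matches describe letters and no measured site.

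Libraries held 8297856 to 12497732 reads. Bptf was lower in every Bptf+/Δ library (407.6 to 1573.3 normalised read counts) than in every wild-type library (1664.7 to 2585.7, exact permutation p = 1.32e-05), as the genotype labels have it. In 16 libraries the translation factor Eef1a1 was the most abundant transcript, and in 3 it was another gene, namely Igha, an antibody heavy chain, with 5.55% of reads in HET_late_4, Col2a1, a cartilage collagen, with 4.36% in HET_early_2 and Bpifa2, a salivary protein, with 5.07% in WT_early_6. HET_early_2 stood apart most. Its 15 general B cell markers summed to 1422 normalised read counts, against 39498 to 56083 in the other HET_early libraries, and its 14 stromal markers to 958583, against 5643 to 16090. Cd79a, a signalling chain of the B cell receptor, had 38.5 normalised read counts there, against 3591 to 8868 in the other early libraries. Results that rest on HET_early_2 are given with and without it, either alone or together with the other 2 of these 3 libraries.

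Rag1 was almost silent in late Bptf+/Δ tumours and high in most early tumours of both genotypes. Its normalised read counts were 0.871, 4.32, 3.15 and 1.51 in HET_late_1 to HET_late_4, from 9 reads in all among 42187720 (exact Poisson 95% interval 4.12 to 17.1 reads). They were 11.1, 5.10, 5367, 36.2 and 628 in WT_late_1 to WT_late_5. In the 4 HET_early libraries they were 3266, 2.66, 2804 and 4452. WT_early ran from 145 over a median of 702 to 4021 (n = 6). Late wild-type tumours were thus split, with WT_late_3 holding the highest Rag1 level of the whole series and 3 others at 36.2 or below, while every WT_early library lay at 145 or above. The HET_late libraries lay below all WT_late libraries, though only just, with 3 reads in HET_late_2 and 5 in WT_late_2. HET_late overlapped HET_early only through HET_early_2, which had 2 reads. Rag1 had at least 100 reads in 0 of 4 HET_late, 2 of 5 WT_late, 3 of 4 HET_early and 6 of 6 WT_early libraries. Intervals and floors here cover counting error only, since amplified reads are not independent molecules.

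Rag2 followed the same order at a lower level. HET_late libraries held 0, 0, 0.787 and 0 normalised read counts, that is 1 read in all, and a count of 0 allows up to 3 reads, or 2.61, 4.32 and 4.52 normalised read counts in the libraries at 0. WT_late libraries held 0, 1.02, 688, 9.67 and 44.7, and HET_early libraries 351, 0, 402 and 626. In WT_early the lowest was 25.4, the median 127 and the highest 387 (n = 6). The libraries highest in late and in early tumours, WT_late_3 and HET_early_4, were the same as for Rag1. Rag2 had 0 reads in 5 of the 19 libraries, 3 of them HET_late, beside WT_late_1 and HET_early_2.

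Dntt was low in most tumours, with under 10 reads in 12 of 19 libraries, and high in a few early ones. HET_late libraries held 0, 1.44, 8.65 and 3.01 normalised read counts, and WT_late libraries 1.84, 2.04, 61.5, 0 and 3.53. HET_early libraries held 244, 0, 7.35 and 87.6. WT_early ran from 0.983 over a median of 9.09 to 553 (n = 6). Only HET_early_1, HET_early_4 and WT_early_5 had 100 or more reads, and all 4 groups overlapped. High Rag1 did not come with high Dntt in every tumour: WT_early_2 held 4021 normalised read counts of Rag1 with 1.71 of Dntt, and HET_early_3 held 2804 with 7.35.

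**Figure D1:**
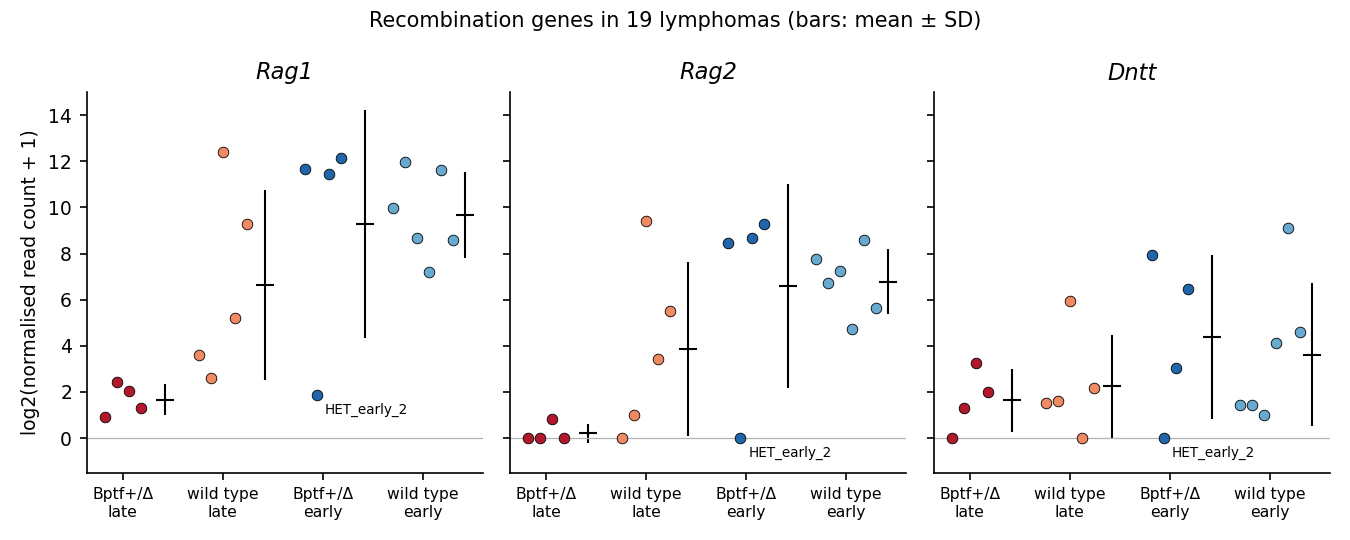
Level of Rag1, Rag2 and Dntt, as log2(normalised read count + 1), in each library (points) of the late Bptf+/Δ, late wild-type, early Bptf+/Δ and early wild-type groups (left to right), with the group mean ± SD beside them (n = 4, 5, 4 and 6). Late Bptf+/Δ tumours lie at 2.41 or below for Rag1 and at 0.84 or below for Rag2, and HET_early_2 lies far below the other early Bptf+/Δ tumours.

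Late tumours were set against early ones on log2(normalised read count + 1). By an exact permutation test over the pooled genotypes, 2-sided and unadjusted, Rag1 was lower in late tumours, with a log2 difference of -5.09 ± 1.63 (SE, n = 9 late and 10 early, exact permutation p = 0.00884), and so was Rag2, with -4.46 ± 1.39 (SE, exact permutation p = 0.00748). Dntt did not pass, with a log2 difference of -1.94 ± 1.19 (SE, exact permutation p = 0.121). Leaving out any 1 library kept these p-values between 0.00167 and 0.0167 for Rag1. In the limma model over all genes, where the mean of both genotypes is compared and p is adjusted over 19927 genes, the log2 differences were -5.32 ± 1.36 (SE, adjusted p = 0.0687) for Rag1, -4.65 ± 1.22 (SE, adjusted p = 0.0745) for Rag2 and -2.05 ± 1.15 (SE, adjusted p = 0.342) for Dntt. None of the 3 was therefore called, in a comparison that called 0.437% of all genes and 0.191% in the lower direction.

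Both Rag genes lay close to that threshold. Several settings moved them past it, and others did not. Without HET_early_2 the limma log2 differences were -6.56 for Rag1 and -5.75 for Rag2, each with an adjusted p of 0.0307, and without WT_late_3 they were -6.05 (adjusted p = 0.0243) and -5.34 (adjusted p = 0.0241). With all 3 libraries led by another gene left out they were -6.61 and -5.83 and did not pass (limma adjusted p = 0.0606 for both). With the level of the general B cell markers as a covariate, limma gave -5.24 (adjusted p = 0.0219) for Rag1 and -4.56 (adjusted p = 0.0185) for Rag2. With the level of 4 Y-linked genes as a covariate, limma gave -5.13 (adjusted p = 0.117) for Rag1 and -4.36 (adjusted p = 0.125) for Rag2. All 4 Y-linked genes had a positive late minus early log2 difference (median 1.71). Sex is not given, and its part in the onset difference was not tested. On the recovered reads edgeR called Rag1 alone (-5.18, adjusted p = 0.0493, in a test that called 0.928% of genes lower), and DESeq2 called all 3 genes (adjusted p of 5.34e-05 for Rag1, 0.00138 for Rag2 and 0.0222 for Dntt, with 3.65% of genes called lower). Over all alternatives run, the adjusted p ranged from 5.34e-05 to 0.130 for Rag1 and from 0.00138 to 0.151 for Rag2. In bulk tumours, fewer cells of a type and less RNA per cell cannot be told apart.

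Within Bptf+/Δ tumours the Rag difference between late and early was larger than in the 6 other comparisons. The limma log2 difference was -7.61 ± 2.06 (SE, adjusted p = 0.0863) for Rag1, -6.39 ± 1.85 (SE, adjusted p = 0.0974) for Rag2 and -2.73 ± 1.75 (SE, adjusted p = 0.397) for Dntt. No gene of the 19927 was called by limma or edgeR here (0%), with 3887 and 4526 genes at an unadjusted p under 0.05, whereas DESeq2 called 1754, 4.26% of genes being called lower, and gave adjusted p of 2.57e-07 for Rag1 and 9.6e-05 for Rag2. Exact permutation tests of 4 against 4 tumours, which cannot go below 0.0286, gave p = 0.0857 for Rag1, 0.143 for Rag2 and 0.286 for Dntt. Without HET_early_2, Rag1 (-10.08) and Rag2 (-8.59) each had an exact permutation p of 0.0286, since all late tumours then lay below all early ones. Their limma adjusted p without that library were 0.0628 and 0.0695.

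Within wild-type tumours no difference by onset passed. Limma gave log2 differences of -3.04 ± 1.77 (SE, adjusted p = 0.961) for Rag1, -2.91 ± 1.59 (SE, adjusted p = 0.961) for Rag2 and -1.37 ± 1.499 (SE, adjusted p = 0.975) for Dntt, with no gene called by limma or edgeR (0%; 966 and 1637 at an unadjusted p under 0.05) and 121 by DESeq2 (0.607%). Exact permutation p-values were 0.143, 0.117 and 0.455 in the same order. The count models gave log2 differences nearer to 0 for the Rag genes, at -0.34 for Rag1 and -0.08 for Rag2 in edgeR (adjusted p = 0.968 and 0.994) and -0.32 and -0.06 in DESeq2 (adjusted p = 0.961 and 0.993). WT_late_3 weighed on these values: without it the log2 difference was -4.48 for Rag1 (exact permutation p = 0.0238) and -4.29 for Rag2 (exact permutation p = 0.00952), and both still missed in limma (adjusted p = 0.854 and 0.841). On the linear scale, which that library dominates, Rag1 averaged 1209 ± 2339 normalised read counts in WT_late and 1513 ± 1647 in WT_early (SD, n = 5 and 6).

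**Figure D2:**
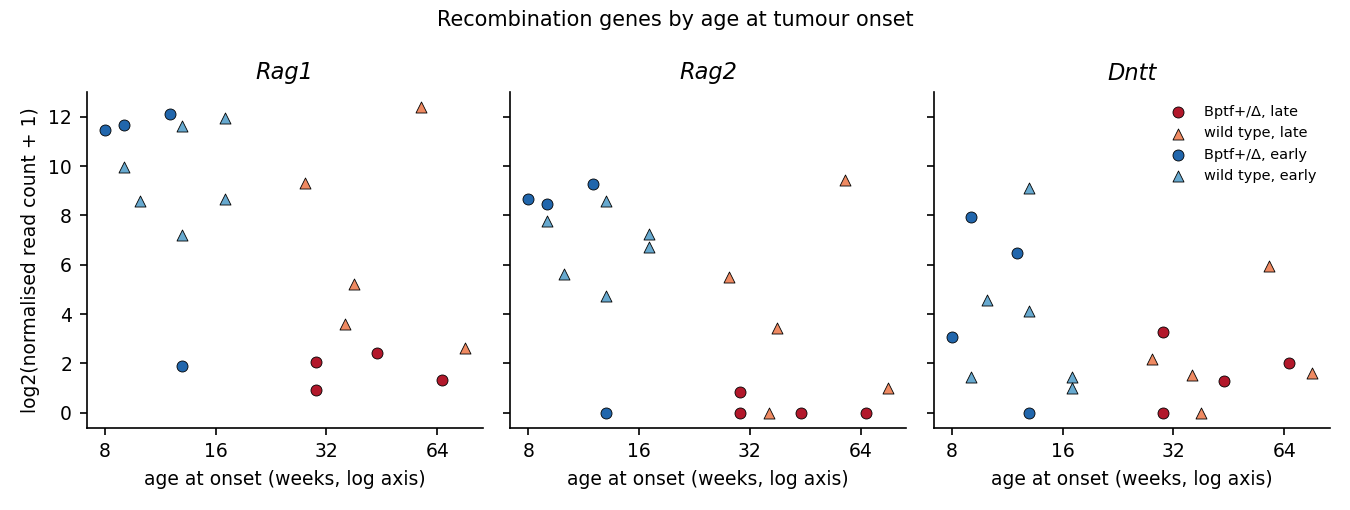
The same levels, as log2(normalised read count + 1), against the age at tumour onset in weeks (log axis), with circles for Bptf+/Δ and triangles for wild-type tumours. Late Bptf+/Δ tumours of 30 to 66 weeks all lie near 0 for Rag2, while the late wild-type tumour of 58 weeks (WT_late_3) has the highest Rag1 and Rag2 values of the series.

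Age at onset in weeks gave slopes of the same sign as the 2 classes, and none passed. Per doubling of the weeks, the limma slope was -2.57 for Rag1 (adjusted p = 0.0769), -2.23 for Rag2 (adjusted p = 0.0822) and -0.94 for Dntt (adjusted p = 0.385), averaged over genotype. Among the 3 latest tumours, Rag1 was at 5367 normalised read counts in WT_late_3 at 58 weeks, at 1.51 in HET_late_4 at 66 weeks and at 5.10 in WT_late_2 at 76 weeks.

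The other question of the design was whether the deleted Bptf allele went with a difference. In late tumours every Bptf+/Δ library had less Rag1 than every wild-type library, and 0.532% of all genes were likewise lower in every HET_late library. The closest pair, HET_late_2 with 3 reads and WT_late_2 with 5, lay within counting error (exact Poisson 95% intervals 0.619 to 8.77 and 1.62 to 11.7 reads). The log2 difference of Rag1 was -4.95 ± 2.11 (SE, n = 4 and 5, exact permutation p = 0.0397, smallest possible 0.00794). It missed without any 1 of the HET_late libraries (exact permutation p of 0.0714 to 0.107). Rag2 differed by -3.67 ± 1.92 (SE, exact permutation p = 0.0873) and Dntt by -0.61 ± 1.28 (SE, exact permutation p = 0.683). Without WT_late_1 the Rag2 difference was -4.63 (exact permutation p = 0.0286), and without WT_late_3 the log2 differences were -3.51 for Rag1 (exact permutation p = 0.0286) and -2.28 for Rag2 (exact permutation p = 0.143). In limma's test over all genes neither Rag gene passed (adjusted p = 0.796 for both, Dntt 0.968). Limma and edgeR called 0% of genes, with 1222 and 1283 at an unadjusted p under 0.05. Covariates brought the limma differences nearer to 0. With a score of T cell, macrophage, stromal and endothelial markers (non-tumour score) they were -3.26 for Rag1 and -1.98 for Rag2. They were -4.20 and -2.91 with the general B cell level, and -4.76 and -3.39 with the Y-linked level. DESeq2 called Rag1 (-8.95, adjusted p = 4.59e-06) and Rag2 (-8.79, adjusted p = 0.00277) among the 0.0703% of genes that it called lower. WT_late_3 alone held 4454 of the 5035 Rag1 reads and 571 of the 618 Rag2 reads of WT_late, and DESeq2 was not run without it.

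In early tumours no genotype difference passed, and its direction depended on HET_early_2. With that library the limma log2 differences were -0.38 ± 1.88 (SE, adjusted p = 0.944) for Rag1, -0.18 ± 1.69 (SE, adjusted p = 0.973) for Rag2 and 0.75 ± 1.60 (SE, adjusted p = 0.859) for Dntt, where limma and edgeR called 0% of genes (2293 and 3206 at an unadjusted p under 0.05) and DESeq2 409 genes (2.05%). Without it they were 2.09, 2.02 and 2.21, with exact permutation p of 0.107, 0.0595 and 0.333. The 3 HET_early libraries other than HET_early_2 held 2804 to 4452 normalised read counts of Rag1, a range that 2 of the 6 WT_early libraries (3131 and 4021) shared.

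Averaged over onset, Bptf+/Δ tumours differed from wild-type tumours by -2.67 ± 1.36 (SE, adjusted p = 0.499) for Rag1, -1.92 ± 1.22 (SE, adjusted p = 0.529) for Rag2 and 0.07 ± 1.15 (SE, adjusted p = 0.984) for Dntt in limma. With the non-tumour score as covariate the limma differences were -0.33 for Rag1 and 0.41 for Rag2. With the general B cell level they were -1.32 and -0.56, and with the Y-linked level -2.49 and -1.67. Here too limma and edgeR called 0% of genes (1988 and 2497 at an unadjusted p under 0.05), and DESeq2 called 26 genes, with Rag1 at an adjusted p of 0.0361 among 0.0251% of genes called lower. Whether the onset difference itself depended on genotype was tested as an interaction. For Rag1 it was -4.57 ± 2.72 (SE, limma adjusted p = 0.758), for Rag2 -3.49 ± 2.44 (SE, limma adjusted p = 0.763) and for Dntt -1.36 ± 2.30 (SE, limma adjusted p = 0.899). When genotype labels were exchanged within onset classes, the exact permutation p-values were 0.185, 0.240 and 0.576. They were 0.00605 for Rag1 (-7.03), 0.00813 for Rag2 (-5.69) and 0.254 for Dntt (-2.82) without HET_early_2. Limma and edgeR called 0% of genes for the interaction, with 1382 and 2116 at an unadjusted p under 0.05, and DESeq2 called 96 genes, Rag1 (adjusted p = 0.00181) and Rag2 (adjusted p = 0.0122) among the 0.406% called lower.

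**Figure D3:**
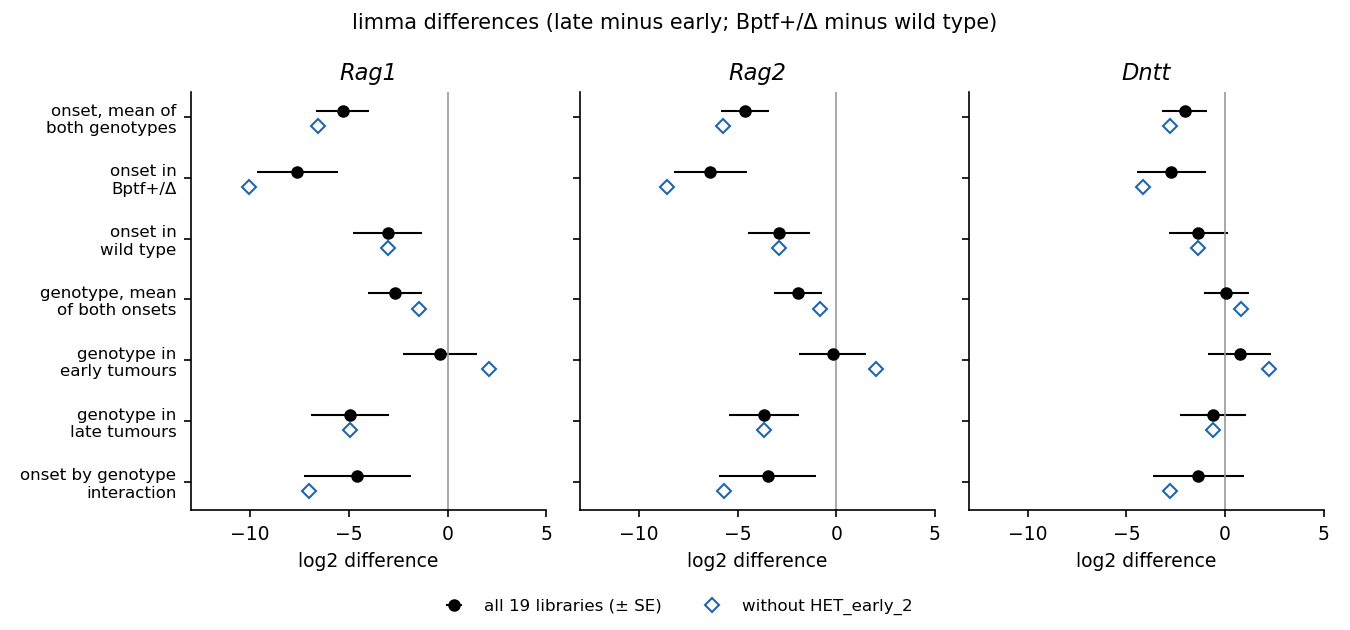
Log2 differences of Rag1, Rag2 and Dntt in the 7 comparisons of the limma model, late minus early or Bptf+/Δ minus wild type, from all 19 libraries (filled circles ± SE) and without HET_early_2 (open diamonds). The onset difference of Rag1 in Bptf+/Δ tumours is -7.61 with HET_early_2 and -10.08 without it, and its absence turns the genotype difference in early tumours above 0 for both Rag genes.

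Where HET_late was compared with HET_early or WT_late, the authors' deposited table gave larger falls of both Rag genes than limma. In wild-type tumours it gave smaller ones, and by genotype alone it gave a smaller fall of Rag1 and none of Rag2. For late over early Bptf+/Δ tumours it listed log2 fold changes of -10.04 for Rag1 (adjusted p = 3.41e-09), -9.94 for Rag2 (adjusted p = 0.0315) and -5.06 for Dntt (adjusted p = 0.0417), in a comparison where 2.94% of the genes with an adjusted p were called lower. For Bptf+/Δ over wild-type late tumours the authors' deposited table had -8.97 for Rag1 (adjusted p = 0.00064), among 0.0292% of genes called lower, and -8.81 for Rag2 with no adjusted p. In wild-type tumours, late over early, the authors' deposited table had -0.30 for Rag1 (adjusted p = 0.952) and -0.04 for Rag2 (adjusted p = 0.992). For Bptf+/Δ over wild-type tumours, with no onset class in the label, the authors' deposited table had -0.06 for Rag1 (adjusted p = 0.987) and 0.18 for Rag2 (adjusted p = 0.966). Limma, averaged over onset, gave -2.67 and -1.92. These comparisons share tumours, and the HET_late libraries enter both of the first ones.

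Within each onset class Rag1 and Rag2 varied together. Pearson's r of the log2 levels was 0.97 in late tumours (n = 9, exact permutation p adjusted over 6 relations = 0.00234) and 0.95 in early tumours (n = 10, permutation p adjusted likewise = 0.00234). Spearman's rho was 0.81 and 0.77, each with an adjusted permutation p of 0.0381. Without the 2 libraries farthest from the median Rag1 level, r was 0.78 in late tumours (n = 7, exact permutation p = 0.0524) and 0.68 in early tumours (n = 8, exact permutation p = 0.0667), so both relations rest in part on WT_late_3 and WT_late_5, and on HET_early_2 and WT_early_4. Dntt was not related to either Rag gene after adjustment (r of 0.55 to 0.68, adjusted permutation p = 0.0946 in each of 4 relations). Without the 2 libraries of each class its r in late tumours was -0.30 with Rag1 and -0.34 with Rag2. In early tumours it was 0.45 with Rag1 and 0.48 with Rag2.

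Compared per kilobase of exon, Rag1 (6.608 kb) was more abundant than Rag2 (3.424 kb) in each of the 11 libraries with at least 10 Rag2 reads. The median ratio of normalised reads per kilobase was 4.04. It ran from 1.38 (95% counting interval 1.15 to 1.68) in WT_early_3 to 20.2 (16.8 to 24.4) in WT_early_2. WT_early_2 held 4710 reads of Rag1 with 121 of Rag2, whereas HET_early_1 held 3507 with 377. In WT_late_3 and WT_late_5 it was 4.04 and 7.28, and in the 3 HET_early libraries with enough reads it ran from 3.62 to 4.82. These intervals cover counting error only and are no test of a difference between tumours. A neighbouring gene, B230118H07Rik, shares 80 exon bases with Rag1 and 208 with Rag2 in GENCODE M21, and the sources used here do not give the strand setting of the counts.

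**Figure D4:**
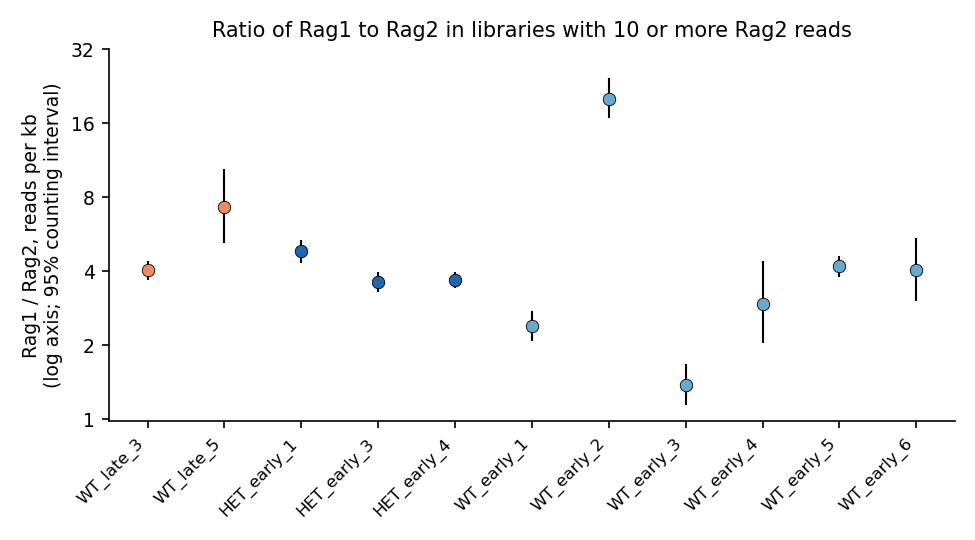
Ratio of Rag1 to Rag2 in reads per kilobase of exon (log axis) in the 11 libraries with 10 or more Rag2 reads, late libraries at the left, with 95% counting intervals as bars. Of these, 8 lie between 2.40 and 4.82, WT_early_3 lies below at 1.38, and WT_late_5 (7.28) and WT_early_2 (20.2) lie above.

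By group mean of the log2 level, Rag1 and Rag2 both ran WT_early, HET_early, WT_late, HET_late, from high to low. The place of WT_early above HET_early rests on HET_early_2, since without it HET_early lay higher by 2.09 for Rag1 and 2.02 for Rag2. With all libraries, neighbouring groups in that order differed by less than their pooled SD except WT_late and HET_late, where the difference of 4.95 for Rag1 and 3.67 for Rag2 stood against pooled SDs of 3.14 and 2.87. For Dntt the order was HET_early, WT_early, WT_late, HET_late, and each step was within the pooled SD. Among the DNA polymerases of the same family, Dntt had a median of 1.31 normalised reads per kilobase over the 19 libraries, against 99.1 for Polm and 92.2 for Poll, which fill gaps at broken ends. Poll stayed between 58.9 and 118 per kilobase in every library, and Polm ran from 5.55 to 355.

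In limma neither the 3 genes nor any of the 9 neighbours measured within 300 kb of them was called for onset averaged over genotype, where 0.437% of all genes were. Traf6, a signalling adaptor next to Rag1, ran from 269 to 1180 normalised read counts, with a late minus early log2 difference of -0.42 ± 0.22 (SE, limma adjusted p = 0.304). Prr5l (0.08) and Commd9 (0.24) on the far side of it did not pass either. Near Dntt, Blnk, an adaptor of B cell receptor signalling, had a log2 difference of 0.81 ± 0.37 (SE, limma adjusted p = 0.242).

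Genes were ranked by Spearman's rho to each member over the 19 libraries, as a description. The other members and predicted genes were left out, so neither Rag gene could be listed for the other. The 5 genes most like each member were then taken from 12480 with a mean of at least 20. For Rag1 they were RP23-469H5.1 (0.90), Sclt1 (0.89), Isoc1 (0.88), Rnase12 (0.87) and Ankhd1 (0.87). For Rag2 they were Rnase12 (0.93), Ebf1 (0.91), Ccdc138 (0.91), RP23-109A22.2 (0.90) and RP23-469H5.1 (0.90), so 2 of the 5 recur. Dntt had a looser set, Drc7 (0.81), Cmtm7 (0.78), Apobec3 (0.75), Mex3a (0.75) and Zfp326 (0.75). Ebf1, a transcription factor that sets up the B lineage, averaged 177 ± 139 normalised read counts in HET_late, 888 ± 593 in WT_late, 1363 ± 818 in HET_early and 1247 ± 717 in WT_early (SD, n = 4, 5, 4 and 6). Its late minus early log2 difference of -2.10 ± 0.67 (SE) did not pass (limma adjusted p = 0.119).

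The general end-joining factors, which act after the RAG cut, included none that passed. Of 21 tested, 9 had a positive and 12 a negative late minus early log2 difference, the median was -0.05 against -0.08 over all genes, and none was called. The smallest p-values were those of Trp53bp1 (-0.54 ± 0.16, SE, limma adjusted p = 0.0902) and Mdc1 (-0.64 ± 0.18, SE, adjusted p = 0.0902), which gather at broken ends. Dclre1c (Artemis), which opens the hairpins left by RAG, had 132 ± 59.5 normalised read counts in HET_late, 123 ± 20.7 in WT_late, 190 ± 57.9 in HET_early and 205 ± 32.8 in WT_early (SD), a log2 difference of -0.69 (adjusted p = 0.131). The ligase factors Lig4 (-0.26), Xrcc4 (0.17) and Nhej1 (0.19) and the DNA-dependent kinase Prkdc (0.015) had smaller values. Hmgb1 and Hmgb2, DNA-bending cofactors of RAG, have many near-identical copies in the genome, and their values (-0.08 and 0.28) are uncertain.

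Among 27 known regulators of the 3 genes, 7 had a positive and 20 a negative log2 difference, with a median of -0.21 (-0.35 without the 3 libraries led by another gene), and none was called. Over all genes the median was -0.08 (-0.05 without the same 3 libraries), 56.0% were negative and 0.437% were called. All genes thus leaned the same way, though less than the list, and the gap was not tested. Besides Ebf1, the smallest p-values were those of Irf8 (1.02, limma adjusted p = 0.193), Vprbp (-0.60, adjusted p = 0.204) and Spi1 (0.49, adjusted p = 0.220). Of 20 markers of progenitor and precursor B cells, 16 had a negative log2 difference (median -1.37), and 1 was called: Cd93, a receptor on early B cells, fell by 2.54 on the log2 scale (-2.54 ± 0.54, SE, limma adjusted p = 0.0467). Of all genes 56.0% were negative and 0.191% were called lower. The call of Cd93 was lost with the Y-linked covariate and without the 3 libraries led by another gene, where limma called 0 genes (3457 and 3681 at an unadjusted p under 0.05), and the median of the list without those libraries was -1.17. In HET_late libraries Cd93 held 125 to 408 normalised read counts and in WT_late libraries 216 to 4329. HET_early libraries held 2223 to 6589 of it and WT_early libraries 734 to 4421. The value of 2223 was that of HET_early_2, where the general B cell markers summed to only 1422. Its 12 endothelial markers summed to 10848, the highest of all libraries, against 2132 to 3695 in HET_late libraries. Cd93 there need not come from B cells, and which cells held it was not tested. Cplx2 (-3.59, adjusted p = 0.0630), Erg (-1.72, adjusted p = 0.137) and Flt3 (2.32, adjusted p = 0.1504) did not pass.

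Tumours with few Rag reads were not all poor in B cell transcripts. HET_late_3, with 4 reads of Rag1 and 1 of Rag2, held 4794 normalised read counts of Cd79a and 2439 of Pax5, the factor that keeps B cell identity. WT_late_4, with 30 reads of Rag1 and 8 of Rag2, held 11925 of Cd79a and 2855 of Pax5. In HET_late_1 and WT_late_1 Cd79a was at 517 and 103, with Pax5 at 2252 and 776 and Blnk at 1667 and 1997. HET_early_2 was low in all of them, with 30.6 of Pax5 and 38.5 of Cd79a. The 15 general B cell markers summed to 22289 to 42200 in HET_late libraries and to 19298 to 56332 in WT_late libraries. The sums were 1422 to 56083 in HET_early libraries and 35563 to 61037 in WT_early libraries, and their part in the Rag differences is measured only by the covariate above.

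Thymocytes are the other normal source of these transcripts. The T cell receptor partner Ptcra, a defining thymocyte marker, was at 9.44 to 23.5 normalised read counts in HET_late libraries and at 1.20 to 36.0 in WT_late libraries. It lay at 3.37 to 7.98 in HET_early libraries and 4.59 to 12.0 in WT_early libraries. Its highest value was in WT_late_1, which had 12 reads of Rag1, and its lowest in WT_late_3, which had 4454. The 10 thymocyte markers had 6 positive and 4 negative log2 differences by onset (median 0.29), and none was called.

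**Figure D5:**
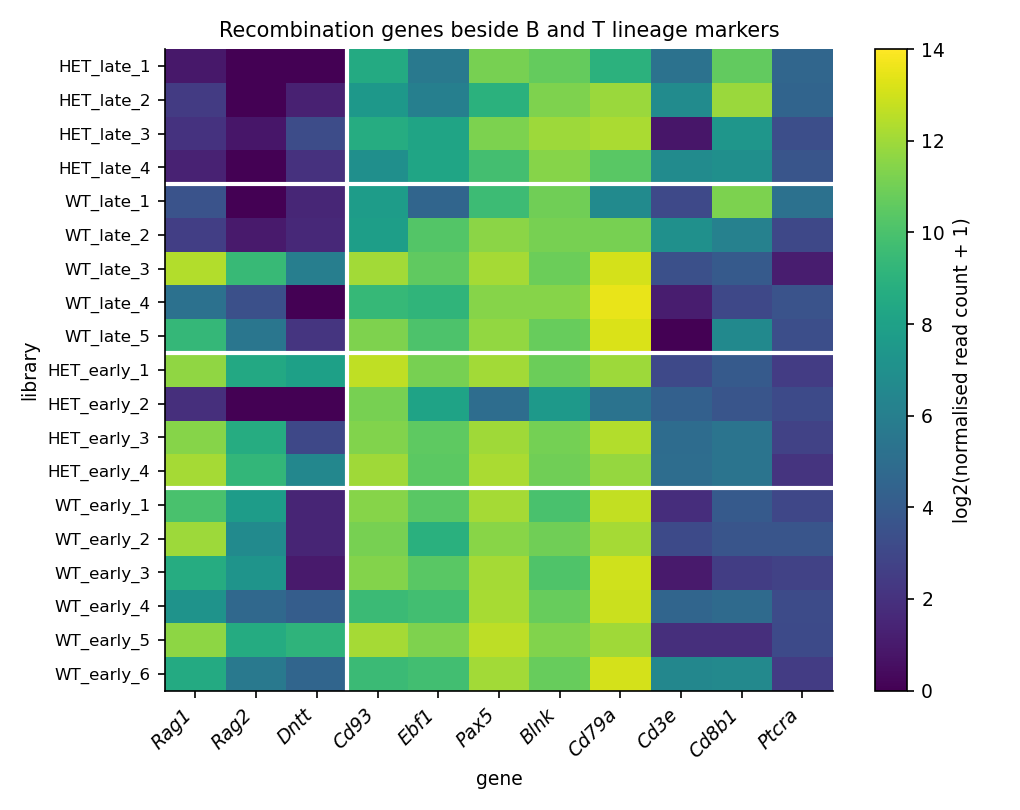
Level of the 3 recombination genes (left block) and of B lineage (Cd93, Ebf1, Pax5, Blnk, Cd79a) and T lineage (Cd3e, Cd8b1, Ptcra) markers, as log2(normalised read count + 1) in colour, in each library, with groups separated by white lines. Late Bptf+/Δ libraries at the top are dark for Rag1 and Rag2 while HET_late_3 keeps Cd79a at 4794 normalised read counts. HET_early_2 is dark for the Rag genes and low for Pax5 and Cd79a, but holds 2223 normalised read counts of Cd93.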

How the data were processed

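Per the labels, polyadenylated RNA of 19 separate lymphomas was made into TruSeq libraries and sequenced on a Genome Analyzer IIx, and the submitters' processing notes name TopHat2 2.1.1, FastQC 0.11.5, Cuffdiff, Cuffnorm and Cufflinks 2.2.1 with the builds mm10 and GRCm38. The deposited table holds a normalised signal per gene and library, which the authors made by scaling the reads of each library with 1 factor. Divided by the value of 1 read, 100% of values came out whole within 0.01 reads, so reads were recovered. The sources used here name neither the tool nor the strand setting or annotation. The authors also deposited log2 fold changes and adjusted p-values (p-value columns) for 5 comparisons, by a tool not given.

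Values were analysed as log2(value + 1) in limma 3.58.1 (R 4.3.3; trend, empirical Bayes), with 4 group means in 1 model and no covariate, for the 19927 genes that reached a value of 1 in 4 or more libraries. A gene was called where its p, adjusted over all genes by Benjamini-Hochberg, was under 0.05. A fold on this scale understates changes of weakly expressed genes. Single genes were also tested with exact 2-sided permutation tests (SciPy 1.17.1), and correlations with 100000 permutations, or exactly under 10 tumours. Alternatives used edgeR 4.0.16 and DESeq2 1.42.0 on the recovered reads, a pseudocount of 0.1, no filter, quantile normalisation, the 2 groups alone, covariates (general B cell, non-tumour or Y-linked level), log2 weeks of onset, and left out 3 libraries led by another gene or each library in turn. The permutation test of the interaction was added after seeing the data. Limma, edgeR and DESeq2 were tested on simulated data. The labels name 2 library protocol versions but not which library used which, and no values within a version were computed.

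The 3 genes and all lists were chosen with earlier results of these data known. Of lists other than end joining, up to 4 members with the smallest limma p for onset were named; other cell type markers were named after their values were seen. Symbols of 16109 genes matched GENCODE M21 (GRCm38). Promoters are from RefSeq (GRCm38.p6), matched for 3 of 3 genes.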

Additional observations from a re-analysis of the deposited data

Results flagged for a closer look

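Each of the 3 genes was checked in each of the 4 groups (12 checks) for a library far from the others of its group, which chance gives in about 1 in 20 groups. Rag1 in HET_early_2 stood apart at 2.66 normalised read counts, against 2804 to 4452 in the other 3 early Bptf+/Δ libraries. Rag2 in the same library was at 0, against 351 to 626. Rag2 in HET_late_3 stood apart upwards at 0.787 normalised read counts, which is 1 read against 0 in the other 3 late Bptf+/Δ libraries. With those at 0 any single read would stand apart, and a count of 0 allows up to 3 reads, so this value is within counting error. HET_early_2 also held the lowest sum of general B cell markers of all libraries (1422) and the highest sum of stromal markers (958583), and the part of these in its Rag values was not tested.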

How the results depend on the processing

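Limma's onset differences averaged over genotype kept their direction for all 3 genes under every alternative run, but their side of the threshold depended on the test. DESeq2 moved past it Rag1 (-5.20), Rag2 (-5.04) and Dntt (-3.77) for onset averaged over genotype, Rag1 (-10.07) and Rag2 (-10.01) for onset in Bptf+/Δ tumours, Rag1 (-4.08) for genotype averaged over onset, Rag1 (-8.95) and Rag2 (-8.79) for genotype in late tumours and Rag1 (-9.75) and Rag2 (-9.94) for the interaction, and edgeR moved Rag1 (-5.18) for onset averaged over genotype. With the general B cell level as covariate the onset differences passed at -5.24 (Rag1) and -4.56 (Rag2) averaged and at -8.12 (Rag1) and -6.91 (Rag2) in Bptf+/Δ tumours. With the non-tumour score they passed at -5.78 and -5.11 averaged and at -8.71 and -7.49 in Bptf+/Δ tumours. Without the 3 libraries led by another gene, the permutation test of Rag1 by genotype in late tumours no longer passed (-4.83, exact permutation p = 0.107), while the interaction passed for Rag1 (-6.70, exact permutation p = 0.0233) and Rag2 (-5.39, exact permutation p = 0.0293). With a pseudocount of 0.1 the early relation of Dntt passed with Rag1 (r = 0.66) and Rag2 (r = 0.67), each with an adjusted permutation p of 0.0459. The cause of these changes was not tested.

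Reversals touched only genotype differences that had not passed. In early tumours Rag1 was at 0.81 in edgeR, 0.80 in DESeq2, 1.57 with the B cell covariate, 2.59 with the non-tumour score and 1.87 without the 3 libraries, and Rag2 at 1.16, 1.15, 1.79, 2.79 and 1.79 in the same order and at 0.049 with the Y-linked covariate. The permutation tests without the 3 libraries also gave 1.87 and 1.79. Dntt in early tumours was at -0.22 in edgeR and -0.23 in DESeq2. Averaged over onset, Dntt was at -0.28 with a pseudocount of 0.1 (-0.37 when pooled in the permutation test), -1.08 in edgeR and -1.14 in DESeq2, and Rag2 at 0.41 with the non-tumour score.

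On leaving out each library in turn, onset averaged over genotype ran from -6.56 to -4.82 for Rag1 and -5.75 to -4.16 for Rag2 in limma. In permutation tests, onset in Bptf+/Δ tumours ran from -10.08 to -6.66 (Rag1) and -8.59 to -5.50 (Rag2), onset in wild-type tumours from -4.48 to -2.04 and -4.29 to -1.94, genotype in late tumours from -5.95 to -3.51 and -4.63 to -2.28, and genotype in early tumours from -1.33 to 2.09 and -1.08 to 2.02, these last also in limma. The interaction ran from -7.03 to -3.12 for Rag1 and -5.69 to -2.10 for Rag2. Dntt ran from -0.53 to 0.80 by genotype averaged over onset in limma and from -0.70 to 0.62 pooled in the permutation test, from -0.44 to 2.21 in early and from -1.17 to 0.32 in late tumours.

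For onset averaged over genotype limma called 87 genes, edgeR 539 and DESeq2 1878, with 793 and 603 under the B cell and non-tumour covariates, 12 with log2 weeks, 0 with the Y-linked covariate or without the 3 libraries, and 0 to 490 on leaving out 1 library. For onset in Bptf+/Δ tumours limma called 0, against 1754 in DESeq2, 59 after quantile normalisation, 21 with the 2 groups alone, 351 and 165 with the covariates, 14 with log2 weeks and 0 to 257 without 1 library. DESeq2 called 121 genes for onset in wild-type tumours and 26, 409, 32 and 96 for genotype averaged, early, late and the interaction, where limma called 0 and, without 1 library, at most 2. Quantile normalisation moved the median of all genes for onset in Bptf+/Δ tumours from -0.12 to 0.04.

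The 2 groups alone give no value for averaged comparisons or the interaction, and log2 weeks none for genotype. No paired analysis was possible because the replicate numbers only name libraries in accession order and each library is a separate tumour. Groups of 4 to 6 tumours, and counts of 0 to 4 reads of Rag1 and Rag2 in late Bptf+/Δ tumours, limit the precision of each value.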

Other observations

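By onset, most markers of later B cell stages leaned the other way from the recombination genes, while 7 of 22 mature B cell markers were negative too. All 17 germinal centre and plasma cell markers had a positive late minus early log2 difference (median 1.49, and 1.03 without the 3 libraries led by another gene, against -0.08 over all genes), although none was called. They include Rgs13, a regulator of G protein signalling in germinal centre B cells, with 400 ± 372 normalised read counts in HET_late, 397 ± 740.1 in WT_late, 3.89 ± 4.201 in HET_early and 0.608 ± 1.11 in WT_early (SD), and a log2 difference of 4.42 (limma adjusted p = 0.0995). Derl3 (2.56, adjusted p = 0.0745), Jchain (3.58, adjusted p = 0.137) and S1pr2 (1.64, adjusted p = 0.177) did not pass either. Of 22 mature B cell markers, 15 were positive (median 0.55, and 0.071 without the 3 libraries), and 1 was called higher in late tumours: H2-Eb1, an MHC class II chain, with a log2 difference of 1.99 ± 0.43 (SE, limma adjusted p = 0.04997), in a comparison that called 0.437% of all genes. In these bulk tumours, which cells held H2-Eb1 was not tested, and 12 of 18 macrophage markers were positive too (median 0.59). Without the 3 libraries limma called no gene (3681 at an unadjusted p under 0.05), and the median of the mature B cell markers in Bptf+/Δ tumours was -0.21, against 0.82 with all libraries. Of the 6 immunoglobulin constant region genes 4 were positive (median 1.18, and 0.26 without the 3 libraries), and of 15 general B cell markers 8 were (median 0.51, and -0.54 without the 3 libraries).

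Of other cell types, 21 of 23 T cell markers (median 0.63) and 12 of 18 macrophage markers (median 0.59) had a positive late minus early difference, while 11 of 14 stromal markers (median -0.84) and 10 of 12 endothelial markers (median -0.77) had a negative one. Of 24 proliferation genes 19 were positive (median 0.12), and all 4 Y-linked genes were (median 1.71). Without the 3 libraries led by another gene, HET_early_2 among them, the median was -0.091 for stromal, -0.59 for endothelial and -0.12 for proliferation genes, so that the direction of the last turned, and 0.697 for T cell, 0.59 for macrophage and 2.61 for Y-linked genes. None of these genes was called. Their part in the Rag differences was measured only through the covariates.

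The surrogate light chain genes Vpreb1 and Igll1, named after their values were seen, were not high wherever Rag1 was. WT_early_5 held 2094 and 3936 normalised read counts of them with 3131 of Rag1, whereas WT_early_2 held 0 and 0 with 4021 of Rag1. By rank over the 19 libraries Vpreb1 and Igll1 still went with the Rag genes. Spearman's rho was 0.67 and 0.71 with Rag1 and 0.78 and 0.81 with Rag2.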
